A study of Sus scrofa with 5 samples.

Results

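Oxygen sensing is described here by 8 genes, HIF1A, EPAS1, ARNT, EGLN1, EGLN2, EGLN3, VHL and HIF1AN, taken by symbol from the 30822 genes listed for ovarian follicles of pigs. Cells sense oxygen mainly through the hypoxia-inducible factors, transcription factors made of an oxygen-labile alpha subunit and a stable partner. HIF1A and EPAS1 (also called HIF2A) encode the alpha subunits, and ARNT encodes the partner. With oxygen present, prolyl hydroxylases encoded by EGLN1, EGLN2 and EGLN3 mark the alpha subunits, the VHL protein binds the marked form and directs it to the proteasome, and the asparaginyl hydroxylase encoded by HIF1AN blocks the alpha subunits from binding their coactivators. The control acts on protein, so mRNA levels show the supply of each component and not the activity of the pathway. In the ovary the granulosa layer and the oocyte have no blood vessels of their own, while the surrounding theca is vascular.

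The genes were measured in 5 RNA libraries of ovarian follicles from female Indian Ghoongroo pigs, a domestic breed. Large follicles gave 3 libraries and small follicles 2, with no treatment beyond follicle size named in the labels. The sources used here do not state the age of the animals, the diameter of the follicles or how many follicles or animals made up a library. The replicates are labelled biological, but nothing says that they came from separate animals. A p-value therefore measures the spread among these 5 libraries, which may be technical. Values are FPKM, fragment counts corrected for the length of the gene and the size of the library, which allow levels to be compared between genes.

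Library totals worked back from the values ran from 9523739 to 11507527 fragments, and 11784 to 13064 genes per library reached 1 FPKM. All 5 libraries held granulosa and theca RNA: the 10 granulosa markers summed to between 3832 and 13306 FPKM and the 7 theca markers to between 757 and 3903 FPKM. No marker with a row in any of the cell type lists was at 0 in every library, though the red cell membrane gene SLC4A1 was near 0 throughout. Of the 13087 genes that reached 1 FPKM in at least 2 libraries, 0.978% were called between large and small follicles (limma, Benjamini-Hochberg adjusted p under 0.05), and 10.4% had an unadjusted p under 0.05.

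Both alpha subunits had their highest values in small follicles, and neither passed the test over all genes. EPAS1 averaged 58.8 ± 13.2 FPKM (SD, n = 2) in small and 19.97 ± 8.58 FPKM (SD, n = 3) in large follicles, a ratio of 2.95. HIF1A averaged 67.2 ± 23.0 FPKM (SD, n = 2) against 32.5 ± 18.5 FPKM (SD, n = 3), a ratio of 2.07. EGLN1, the main prolyl hydroxylase, averaged 31.4 ± 10.07 against 17.8 ± 6.19 FPKM. ARNT, EGLN3, HIF1AN and VHL had overlapping values in large and small follicles, and EGLN2 was listed at 0 in every library. Of the 7 members that could be tested, limma called 0 and limma voom on fragments called 0, against 0.978% and 0.535% of all genes (0.443% called lower in large follicles by limma). An unadjusted p under 0.05 was reached by 3 (HIF1A, EPAS1 and EGLN1), each with the lower mean in large follicles, against 5.67% of all genes in that direction. In these 3 members every small library stood above every large one, which was so for 15.2% of all genes tested. In whole follicles, fewer cells that express a gene and less of its RNA per cell cannot be told apart.

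**Figure D1:**
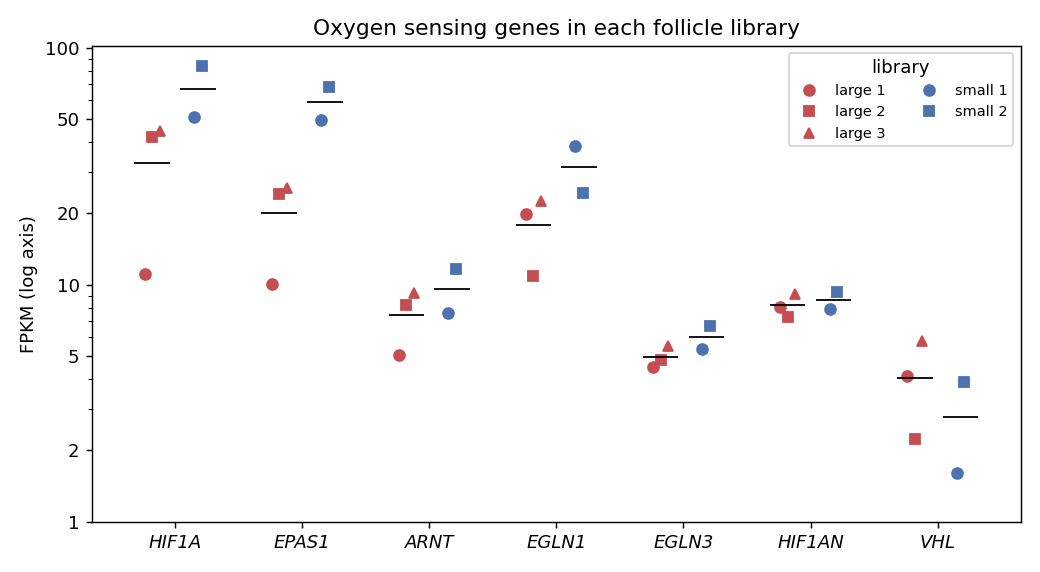
FPKM on a log axis for the 7 oxygen sensing genes with fragments; each point is a library (red for large, blue for small follicles) and each black line a group mean. HIF1A, EPAS1 and EGLN1 are higher in both small libraries than in all 3 large ones, and large replicate 1 lies far below the other libraries for HIF1A (11.12 FPKM) and EPAS1 (10.1 FPKM). EGLN2, listed at 0 in every library, is not drawn.

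EPAS1 (gene 100037272, Sscrofa11.1 chromosome 3, 94167759 to 94253662, minus strand) encodes the alpha subunit best known from endothelial and interstitial cells. Its levels in large follicles were 10.1, 24.2 and 25.7 FPKM in replicates 1, 2 and 3, and in small follicles 49.5 and 68.2 FPKM in replicates 1 and 2. The groups did not overlap, and the lowest small library lay well above the highest large one. As log2(FPKM + 1), large follicles minus small ones, the difference was -1.60 (SE 0.37, 95% interval -2.42 to -0.77, limma adjusted p = 0.0915), and by p it ranked 230 of the 13087 genes. All differences below have this direction and scale. The call depended on which libraries entered. The limma adjusted p was 0.00885 without large replicate 2, 0.00379 without large replicate 3, 0.127 without large replicate 1, 0.149 without small replicate 1 and 0.419 without small replicate 2. It was 0.0366 with libraries scaled to a common sum and 0.118 with limma voom on fragments, and all 16 alternatives gave 0.000677 to 0.419.

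Of 14 endothelial markers, all tested, 11 had higher and 3 lower values in large follicles, and 1, the water channel AQP1, was called higher. Their summed level was 587, 498 and 499 FPKM in large replicates 1, 2 and 3 and 380 and 424 FPKM in small replicates 1 and 2, so the sum was higher in all 3 large libraries. CDH5, the endothelial cadherin, was lowest in large replicate 1 (20.4 FPKM) and highest in small replicate 2 (31.5 FPKM), as EPAS1 was. The same held for the VEGF receptor KDR (8.56 and 13.9 FPKM), but no other endothelial marker was lowest in large replicate 1. The markers CLDN5 and EGFL7 were highest there (104 and 154 FPKM). Of all genes tested, 16.7% were lowest in large replicate 1 and 45.9% highest in small replicate 2. Over all 13087 genes tested, 5223 had higher and 7864 lower values in large follicles. Of the 10 granulosa markers 9 were tested, with 2 higher and 7 lower in large follicles, the latter the direction of EPAS1. Their summed level, however, was 5212 to 13306 FPKM in large against 3832 and 5327 FPKM in small follicles. The single gene INHA made up most of that sum, at 4474 to 11739 FPKM in large and 2876 and 3515 FPKM in small follicles. INHBB, an inhibin subunit gene, was the called marker, lower in large follicles. The part of cell composition in the EPAS1 values was not tested.

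HIF1A (gene 396696, chromosome 1, 190625436 to 190673926, plus strand) encodes the alpha subunit present in most cell types. It had 11.12, 41.9 and 44.4 FPKM in large replicates 1, 2 and 3 and 50.9 and 83.5 FPKM in small replicates 1 and 2. The groups did not overlap, yet large replicates 2 and 3 lay nearer to small replicate 1 than to large replicate 1. The difference was -1.21 (SE 0.51, 95% interval -2.35 to -0.06) with a limma adjusted p of 0.4501. Large replicate 1 carried much of it: without that library the ratio of the means, small over large, was 1.56 and the difference -0.59 (limma adjusted p = 0.754). Without small replicate 2 the ratio was 1.57 (limma adjusted p = 0.992), and all 16 alternatives gave adjusted p values from 0.00539 to 0.992.

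The HIF1A value of large replicate 1 came from 366 fragments, and those of the other 4 libraries from 1198 to 2397. On the log2(FPKM + 1) scale HIF1A in large replicate 1 lay 2.16 below the mean of the other 4 libraries (a difference of -2.16), the fourth lowest of 5456 genes with a mean of at least 10 FPKM. EPAS1 was the seventh lowest, at -1.82. All 3 HIF subunit genes had their lowest value in large replicate 1, which was so for 16.7% of all genes tested.

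ARNT (gene 396653, chromosome 4, 98333431 to 98390012, plus strand), the shared partner, was less abundant than either alpha subunit in all 5 libraries. It had 5.05, 8.18 and 9.19 FPKM in large replicates 1, 2 and 3 and 7.60 and 11.6 FPKM in small replicates 1 and 2. Small replicate 1 fell within the large range, and the difference was -0.33 (SE 0.32, 95% interval -1.05 to 0.38, limma adjusted p = 0.823). The last 554 bases of its span overlap CTSK, a cathepsin gene on the same strand at 48.4 to 87.1 FPKM, so fragments from that stretch leave the ARNT level uncertain.

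Ratios of levels within a library do not depend on the library total. EPAS1 over HIF1A was 0.909, 0.576 and 0.578 in large replicates 1, 2 and 3, and 0.972 and 0.816 in small replicates 1 and 2. HIF1A was therefore the more abundant alpha subunit in all 5 libraries, and the ratios of the groups overlapped. HIF1A over ARNT was 2.20, 5.13 and 4.83 in large and 6.71 and 7.18 in small follicles, with no overlap. No test was made of these ratios.

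Among the prolyl hydroxylases, EGLN1 (gene 100153461, chromosome 14, 59113527 to 59168421) had 19.95, 10.8 and 22.6 FPKM in large replicates 1, 2 and 3 and 38.5 and 24.3 FPKM in small replicates 1 and 2. The groups did not overlap, but large replicate 3 and small replicate 2 were separated by little: their Poisson intervals, 20.9 to 24.4 and 22.5 to 26.2 FPKM, overlapped. The difference was -0.81 (SE 0.33, 95% interval -1.55 to -0.07, limma adjusted p = 0.426). EGLN1 did not share the library order of HIF1A and EPAS1, since its lowest library was large replicate 2 and its highest small replicate 1. Large replicate 2 was the lowest large library for 62.0% of all genes tested, and small replicate 1 stood above small replicate 2 for 20.2%.

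EGLN3 (gene 100152368, chromosome 7, 65805513 to 65833536), the prolyl hydroxylase best known as a strongly hypoxia-induced HIF target, had low levels in every library. It had 4.48, 4.82 and 5.52 FPKM in large replicates 1, 2 and 3 and 5.35 and 6.68 FPKM in small replicates 1 and 2. Small replicate 1 lay inside the large range, and the difference was -0.24 (SE 0.27, 95% interval -0.85 to 0.38, limma adjusted p = 0.864). EGLN1 exceeded EGLN3 between 2.25-fold and 7.20-fold across the 5 libraries.

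EGLN2 (gene 100523673, chromosome 6, 49002266 to 49010042, plus strand), the third prolyl hydroxylase, was listed at 0 in all 5 libraries and could not be tested. For a gene of its listed 1830 bases, 3 fragments would correspond to 0.142 to 0.172 FPKM. Its whole annotated span lies inside the spans of RAB4B, a small GTPase gene, and MIA, a gene for a secreted protein, on the same strand, and all 3 spans end at the same base. RAB4B was also listed at 0 in every library, and MIA had between 5 and 16 fragments. Across the annotation, 95 of 228 protein-coding genes that lie wholly inside another on the same strand were at 0 in all libraries (41.7%, Wilson 95% interval 35.5% to 48.2%), against 14.1% of the other 20435 (13.6% to 14.6%). The sources used here do not say how fragments in overlapping genes were counted, so the listed 0 does not show that EGLN2 RNA was missing from the follicles.

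HIF1AN (gene 100155854, chromosome 14, 111636317 to 111654659), the asparaginyl hydroxylase, had the difference nearest to 0. Its levels were 8.07, 7.34 and 9.12 FPKM in large replicates 1, 2 and 3 and 7.89 and 9.36 FPKM in small replicates 1 and 2. The groups overlapped almost fully, with a difference of -0.07 (SE 0.26, 95% interval -0.64 to 0.50, limma adjusted p = 0.961). That interval allows a modest difference in either direction. The sign turned with median-of-ratios scaling (0.012) and quantile normalization (0.049), and without small replicate 2 (0.041).

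VHL (gene 100739306, chromosome 13, 66334535 to 66342401), the substrate receptor of the ligase that removes hydroxylated alpha subunits, was the only tested member with the higher mean in large follicles. It had 4.13, 2.22 and 5.79 FPKM in large replicates 1, 2 and 3 and 1.61 and 3.89 FPKM in small replicates 1 and 2. Large replicate 2 and small replicate 1 were the low libraries of their groups, from 58 and 40 fragments, which was so for 55.8% of all genes tested. The groups overlapped. The difference was 0.43 (SE 0.40, 95% interval -0.46 to 1.33, limma adjusted p = 0.812), and it was -0.021 without small replicate 1 and 0.89 without small replicate 2.

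By mean FPKM the order in large follicles was HIF1A, EPAS1, EGLN1, HIF1AN, ARNT, EGLN3 and VHL. In large follicles the libraries of every neighbouring pair in that order overlapped, except EGLN1 and HIF1AN. HIF1A stood above EPAS1 within each of the 3 large libraries, although the ranges of the 2 genes overlapped. In small follicles ARNT and HIF1AN changed places, and the overlapping neighbours were HIF1A with EPAS1 and ARNT with HIF1AN. The summed EGLN1 and EGLN3 levels over summed HIF1A and EPAS1 gave 1.15 in large replicate 1. The ratio was 0.237 and 0.402 in large replicates 2 and 3, and 0.437 and 0.204 in small replicates 1 and 2. Only in large replicate 1 did EGLN1 and EGLN3 together exceed HIF1A and EPAS1. The ratio leaves out HIF1AN, and EGLN2 because of its uncertain listed 0, so it is not the ratio of all hydroxylase mRNA.

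HIF1A and EPAS1 placed the 5 libraries in the same order, from large replicate 1 through large replicates 2 and 3 to small replicates 1 and 2, an order shared by 3.13% of all genes tested. Likeness was measured as the root mean square difference of the log2(FPKM + 1) values, centred on each gene's mean, over the 5 libraries, among 7547 other named genes with a mean of at least 5 FPKM. For HIF1A the 3 nearest were the microRNA locus MIR9812 (0.09), CAPZA1, an actin capping subunit (0.10), and IL13RA1, an interleukin receptor subunit (0.13). MIR9812 spans 72 bases with 11 to 64 fragments per library of an mRNA kit, so its values need not come from a mature microRNA. EPAS1 was the fourteenth nearest to HIF1A, at 0.31.

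For EPAS1 the nearest were ARHGAP23, a GTPase-activating protein (0.14), NUMA1, a spindle pole protein (0.21), and C1QTNF6, a secreted C1q-related protein (0.21). Each of these 6 genes had its lowest value in large replicate 1 and its highest in small replicate 2, as HIF1A and EPAS1 did. None was called, with limma adjusted p values from 0.191 for ARHGAP23 to 0.551 for CAPZA1. They were chosen for their likeness to HIF1A or EPAS1, so their tests add no independent information. Without large replicate 3 the limma adjusted p was 0.0290 for MIR9812 and 0.0326 for NUMA1, and without large replicate 2 it was 0.0473 for ARHGAP23 and 0.0436 for C1QTNF6. Over 16 alternatives it ran from 0.00165 to 0.967 for MIR9812, 0.0326 to 0.711 for NUMA1, 0.0473 to 0.743 for ARHGAP23 and 0.0436 to 0.864 for C1QTNF6.

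**Figure D2:**
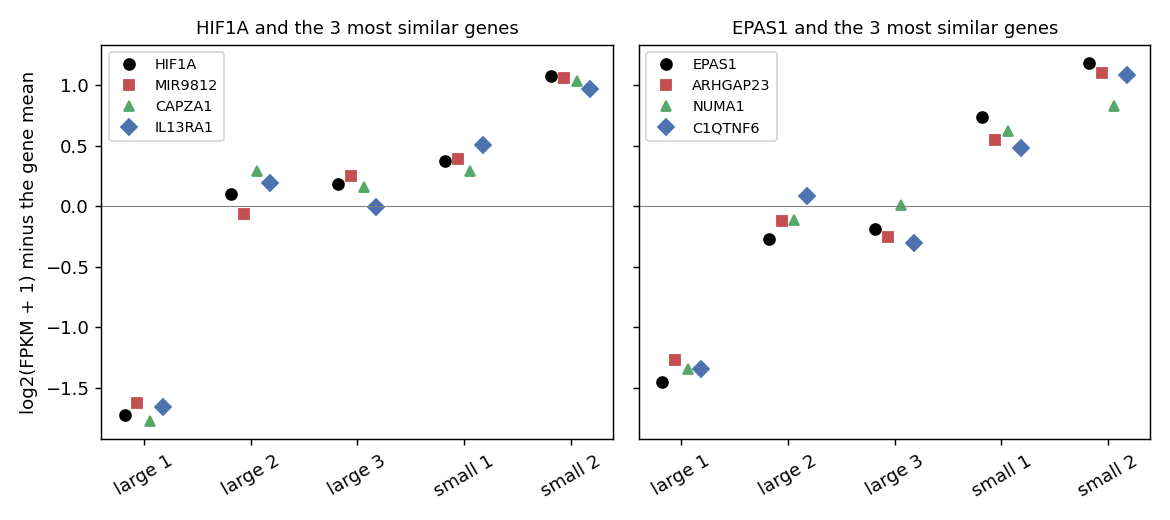
Values of log2(FPKM + 1) minus the gene mean in the 5 libraries for HIF1A (left, black) and EPAS1 (right, black), each with its 3 most similar genes in colour. In both panels large replicate 1 is the lowest library and small replicate 2 the highest; large replicates 2 and 3 lie nearer the middle.

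The rest of the VHL ligase showed no called gene. Of 10 listed genes, all tested, limma called 0 and limma voom called 0, against 0.978% and 0.535% of all genes. An unadjusted limma p under 0.05 was reached by 0, against 10.4% of all genes. In large follicles 6 had higher and 4 lower values, with a median difference of 0.05 against -0.08 over all genes tested. ELOB, an elongin subunit of the ligase, had 273 ± 66.6 FPKM (SD, n = 3) in large against 230.4 ± 41.6 FPKM (SD, n = 2) in small follicles. NEDD8, the ubiquitin-like activator of cullins, had 86.5 ± 9.95 against 70.6 ± 8.78 FPKM, and was the 1 gene of these 10 whose groups did not overlap, against 26.1% of all genes. UBE2D1, a ubiquitin-conjugating enzyme, had 4.82 ± 3.42 against 6.71 ± 1.40 FPKM, a ratio of small over large of 1.39 that was 2.11 without large replicate 3 and 1.02 without large replicate 2. Their limma adjusted p values were 0.864, 0.726 and 0.782.

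Among HIF partners, cofactors and factors of HIF stability, 20 of 21 listed genes were tested, and 8 had higher and 12 lower values in large follicles. Limma called 0 and limma voom called 0, against 0.978% and 0.535% of all genes. An unadjusted p under 0.05 was reached by 3 of 20 (15.0%, against 10.4% of all genes). CITED4, which competes with HIF for the coactivators CREBBP and EP300, had 3.21 ± 0.814 FPKM (SD, n = 3) in large against 6.23 ± 0.9998 FPKM (SD, n = 2) in small follicles (limma adjusted p = 0.365). The chaperone HSP90AA1, which binds and stabilizes HIF alpha subunits, had 298 ± 44.4 against 424 ± 40.5 FPKM (limma adjusted p = 0.472). P4HTM, a transmembrane prolyl hydroxylase, went the other way, at 16.5 ± 1.82 against 10.3 ± 2.18 FPKM (limma adjusted p = 0.386). HIF3A, the third alpha subunit gene, stayed under the filter at 0.208 to 0.846 FPKM. ARNT2, the paralogue of ARNT, had a level similar to ARNT at 5.18 to 10.5 FPKM.

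Genes known as HIF targets showed no shared direction. Of 62 listed targets, 61 had a row and 55 were tested; 22 had higher and 33 lower values in large follicles, with a median difference of -0.06 against -0.08 over all genes tested. Limma called 0 and limma voom called 0, against 0.978% and 0.535% of all genes. An unadjusted p under 0.05 was reached by 5 of 55 (9.09%), against 10.4% of all genes. Between the groups 15 of 55 did not overlap, against 26.1% of all genes.

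In the vessel and blood list, 5 of 11 tested targets had higher and 6 lower values in large follicles. ANGPTL4, a secreted inhibitor of lipoprotein lipase, had 71.0, 92.5 and 83.3 FPKM in large replicates 1, 2 and 3 and 40.1 and 58.4 FPKM in small replicates 1 and 2. Every large library exceeded both small ones, and the difference was 0.75 (SE 0.23, limma adjusted p = 0.241). VEGFA, the classic vessel growth factor under HIF control, had 20.8, 25.1 and 41.5 FPKM in large and 16.9 and 45.5 FPKM in small follicles, so its lowest and highest libraries were both small. TFRC, the transferrin receptor, had 0.731 ± 0.646 against 1.95 ± 1.51 FPKM (limma adjusted p = 0.611). Its values came from only 2, 18 and 34 fragments in large replicates 1, 2 and 3 and 20 and 72 in small replicates 1 and 2. The ratio of small over large was 1.21 without small replicate 2 and 4.69 without large replicate 3. EPO was listed at 0 in every library.

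In the glucose list, 8 of 18 tested targets had higher and 10 lower values in large follicles. PFKP, the platelet-type phosphofructokinase subunit, differed little within each group. It had 13.4, 12.2 and 12.2 FPKM in large replicates 1, 2 and 3 and 24.1 and 24.4 FPKM in small replicates 1 and 2. The difference was -0.89 (SE 0.22, limma adjusted p = 0.106, and 0.0984 to 0.795 over 16 alternative settings). PFKFB3, which makes the activator of phosphofructokinase, had 2.81, 2.97 and 4.45 FPKM in large and 6.73 and 9.63 FPKM in small follicles (difference -1.06, SE 0.31, limma adjusted p = 0.195). SLC2A3, a glucose transporter, had 25.3 ± 6.30 FPKM (SD, n = 3) in large against 17.8 ± 7.25 FPKM (SD, n = 2) in small follicles (limma adjusted p = 0.647).

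Among the glycolytic enzymes a pattern over single libraries was seen in these data and is given as a description. Large replicate 2 was the highest large library for 12 of the 18 glucose genes, against 15.7% of all genes tested, among them GAPDH, ALDOA, ENO1 and LDHA. GAPDH had 521, 1029 and 524 FPKM in large replicates 1, 2 and 3 and 721 and 504 FPKM in small replicates 1 and 2. For 8 of the 18, HK1, GPI, PFKL, ALDOA, ALDOC, TPI1, GAPDH and ENO1, small replicate 1 was in addition above small replicate 2, a joint pattern of 7.71% of all genes. Large replicate 2 and small replicate 1 were also the libraries with the fewest genes at 1 FPKM, 11784 and 12101, and the part of that in these values was not tested. Processed copies of GAPDH and other glycolytic genes can share fragments, so their levels are uncertain.

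**Figure D3:**
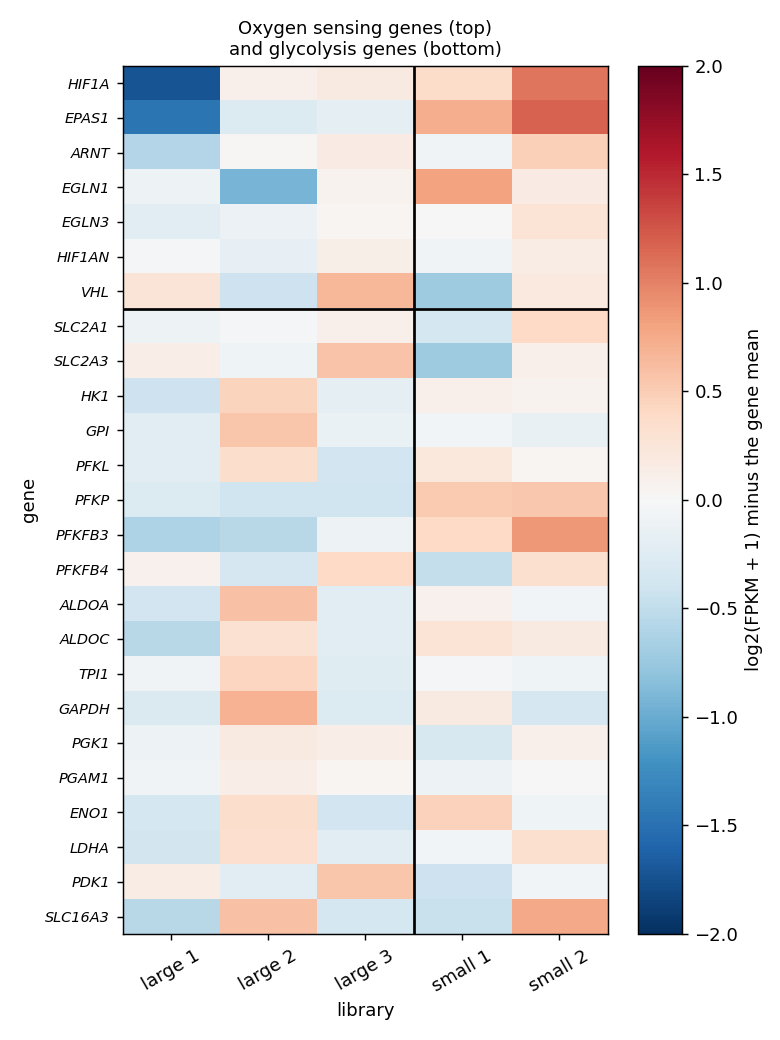
Colour gives log2(FPKM + 1) minus the gene mean in each library, for the 7 tested oxygen sensing genes (above the line) and 18 glucose genes (below it). HIF1A and EPAS1 are darkest blue in large replicate 1, while many glycolytic enzymes, GAPDH and ALDOA among them, are highest in large replicate 2.

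The other target groups also held no called gene. In the matrix list 0 of 5 tested genes had higher and 5 lower values in large follicles. P4HA1, a collagen prolyl hydroxylase of the same enzyme class as the HIF hydroxylases, had 26.2 ± 4.69 FPKM (SD, n = 3) against 35.3 ± 5.15 FPKM (SD, n = 2). LOX, which crosslinks collagen, had 3.37 ± 1.72 against 5.97 ± 2.71 FPKM, and the lysyl hydroxylase PLOD1 70.3 ± 5.47 against 80.5 ± 12.5 FPKM. Their limma adjusted p values were 0.606, 0.655 and 0.849.

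In the mitochondrial list 4 of 6 tested genes had higher and 2 lower values. AK4, an adenylate kinase, had 4.24 ± 0.213 FPKM (SD, n = 3) against 6.33 ± 0.512 FPKM (SD, n = 2), FAM162A, a hypoxia-induced mitochondrial protein, 93.5 ± 16.6 against 76.3 ± 5.49 FPKM, and the mitophagy receptor BNIP3L 25.4 ± 8.97 against 32.1 ± 4.03 FPKM. In the list of acid balance and lipid storage 1 of 4 tested genes had a higher and 3 a lower value. HILPDA, a lipid droplet protein, had 15.0 ± 1.70 against 12.2 ± 0.319 FPKM. PLIN2, which coats lipid droplets, had 13.97 ± 3.52 against 16.2 ± 2.06 FPKM, and INSIG2, a regulator of sterol synthesis, 3.80 ± 1.78 against 4.18 ± 0.832 FPKM. The limma adjusted p values of these 6 genes lay between 0.611 and 0.932.

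In the signalling and transcription list 4 of 11 tested genes had higher and 7 lower values. DDIT4, an inhibitor of mTOR signalling, had 131, 102 and 126 FPKM in large replicates 1, 2 and 3 and 67.5 and 93.6 FPKM in small replicates 1 and 2. Every large library stood above both small ones, with a difference of 0.58 (SE 0.22, limma adjusted p = 0.385). NDRG1, a stress protein widely used as a hypoxia marker, had 31.1 ± 5.07 FPKM (SD, n = 3) against 39.4 ± 0.109 FPKM (SD, n = 2), and IGFBP3, which binds insulin-like growth factors, 3.81 ± 1.20 against 6.39 ± 0.944 FPKM. Their limma adjusted p values were 0.688 and 0.543.

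**Figure D4:**
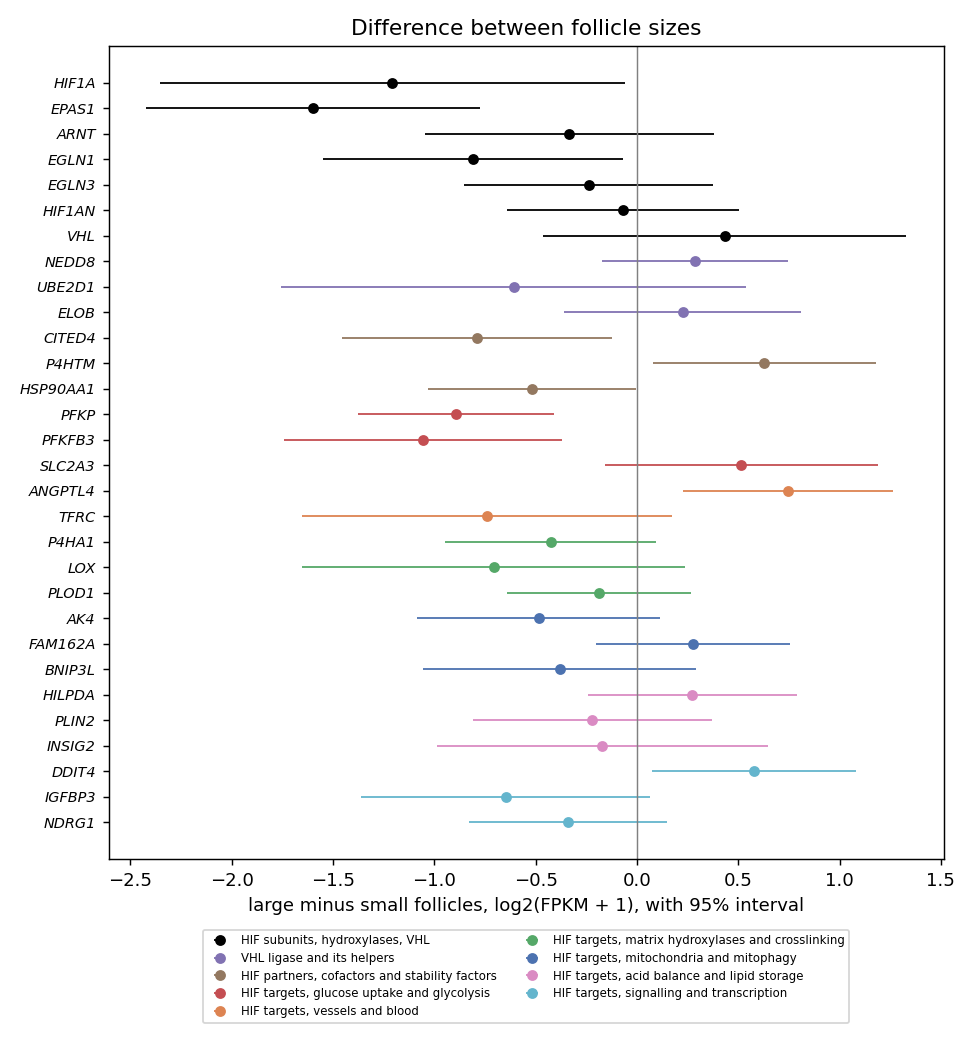
Difference between large and small follicles on the log2(FPKM + 1) scale with its 95% interval from limma, for the 7 tested oxygen sensing genes and the genes of the ligase, cofactor and target lists named in the text, coloured by list. The interval of EPAS1 lies between -2.42 and -0.77; target genes lie on both sides of 0, with PFKFB3 at -1.06 and ANGPTL4 at 0.75.

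The marker lists of other cell types, any of which could hold HIF1A or EPAS1 RNA, had these summed levels. Of all genes tested, 5223 of 13087 had higher values in large follicles. The 10 myeloid markers summed to 267 to 399 FPKM in large and 164 and 184 FPKM in small follicles, and 9 of 10 tested had higher values in large follicles, with LYZ, the lysozyme gene, called higher (limma adjusted p = 0.000551). The 9 smooth muscle and pericyte markers summed to 3784 to 4555 FPKM in large and 3179 and 3231 FPKM in small follicles, with 4 higher and 5 lower. Most of that sum was ACTA2 (1588 to 2433 FPKM) and TAGLN (1035 to 1682 FPKM) in every library. The 8 lymphocyte markers summed to 14.2 to 29.6 FPKM in large and 12.6 and 15.4 FPKM in small follicles, so the sums overlapped, with 5 of 5 tested higher. NKG7 was the highest of the 8 in every library (5.38 to 19.7 FPKM), and the difference of CD2 was only 0.025. The 5 red blood cell markers with a row summed to 1003 to 1675 FPKM in large and 233 and 701 FPKM in small follicles, with 3 of 3 tested higher. Nearly all of that sum was HBB, at 231 to 1663 FPKM over the 5 libraries. The 7 theca markers summed to 1845 to 3903 FPKM in large and 757 and 1097 FPKM in small follicles, with 4 higher and 3 lower. CYP17A1, an enzyme of androgen synthesis, was called higher (limma adjusted p = 0.0121). Together with INSL3 it made up most of the theca sum in every library. The 8 oocyte markers summed to 46.8 to 64.3 FPKM in large and 27.0 and 39.0 FPKM in small follicles, with 3 of 5 tested higher. Their part in the values of the oxygen sensing genes was not tested.

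**Figure D5:**
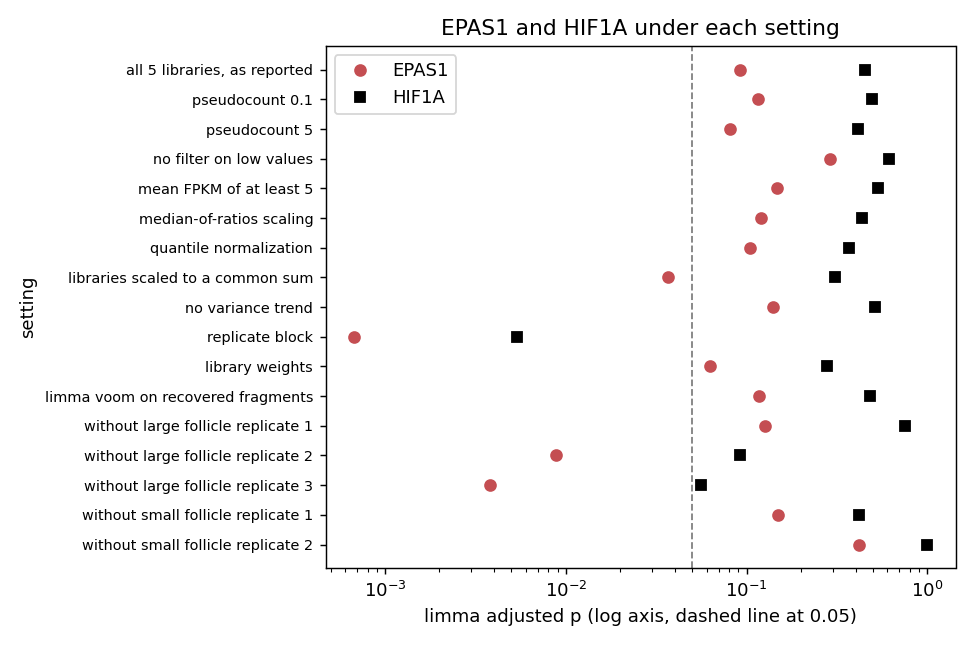
Limma adjusted p on a log axis for EPAS1 (red) and HIF1A (black) with all 5 libraries and under 16 alternative settings; the dashed line marks 0.05. EPAS1 lies left of the line with libraries scaled to a common sum (0.0366), with a replicate block, and without large replicate 2 (0.00885) or 3 (0.00379). HIF1A lies left of it with the replicate block.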

How the data were processed

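The authors deposited FPKM values per gene, 1 file per library. The submitters' processing notes list, without saying what each did, HISAT2 (2.0.5), StringTie (1.3.3), featureCounts (1.5.0-p3), Trimmomatic (0.38) and FastQC (0.11.4), and Sscrofa11.1 as the build. Per the labels' protocols RNA was isolated with TRIzol for a stranded mRNA kit; the strand setting of the counting is not stated there. Chromosome numbers came from a RefSeq table of that build, which matched 30335 of 30822 gene identifiers.

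Fragments were worked back from the FPKM steps. Of 23353 genes above 0, 49.5% gave whole fragments within 0.001 with the listed length, and the others with a shorter length found by search. Intervals of fragments are exact Poisson 95% intervals and cover counting error only.

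The 13087 genes that reached 1 FPKM in 2 or more libraries were tested with limma 3.58.1 in R 4.3.3 on log2(FPKM + 1), which understates changes of low genes, with a mean-variance trend, two-sided, with Benjamini-Hochberg adjustment over all genes tested. Other pseudocounts, filters, scalings, weights, a replicate block, limma voom and leaving out each library were the alternatives. The code was checked on simulated libraries in which all genes had the same spread. In these limma called 28.2% of 2-fold and 94.2% of 4-fold changes. A gene that was not called may therefore still differ between the follicle sizes. Members and lists were chosen with earlier results of these data known. Named genes were all 8 members, the 3 genes of smallest p in each other list, and the 3 most similar profiles for HIF1A and EPAS1; 1 of these is not reported here. COX4I2 was not analysed here.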

Additional observations from a re-analysis of the deposited data

How the results depend on the processing

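Limma called 0 of the 7 oxygen sensing genes tested with all 5 libraries. It called 1 with libraries scaled to a common sum (EPAS1) and 2 with a replicate block (HIF1A and EPAS1). With 1 large library left out it called between 0 and 1. Of all 13087 genes tested, limma called 128 with all 5 libraries, 152 with the common sum and 157 with the block. It called 29, 268 and 222 of them without large replicates 1, 2 and 3. The counts of HIF targets, VHL ligase genes and HIF cofactors called stayed at 0 under all 16 alternatives. Whether the replicate numbers pair the libraries is not known. Deviations of same-numbered libraries from their group means had correlations across genes of -0.00148 and -0.449. The 2 small libraries deviate from their mean by equal and opposite amounts, so these correlations cannot decide whether the libraries are paired. With the block the limma adjusted p was 0.00539 for HIF1A and 0.000677 for EPAS1, from a fit in which large replicate 3 has no partner. That library then adds nothing to the differences, which were -1.54 for HIF1A and -1.82 for EPAS1, the same as without large replicate 3. The block also leaves very little information on the spread within groups, so these p values are weakly founded. Over all alternatives the limma adjusted p ran upward from 0.000677 for EPAS1 and from 0.00539 for HIF1A, both with the block. Of 37 named genes, 34 kept the sign of their difference under every alternative. Apart from the members, they were chosen by small p or by likeness to HIF1A or EPAS1 in these same libraries. The choice itself favours a stable sign, so this count is no measure of robustness. The difference of HIF1AN was 0.012 with median-of-ratios scaling and 0.049 with quantile normalization. With 1 library left out, HIF1AN ranged from -0.18 to 0.041, VHL from -0.021 to 0.89 and INSIG2 from -0.43 to 0.13. Scaling to a common sum moved the median of all genes by -0.11. Without 1 small library, the other is assumed to vary like the large ones. The TFRC ratio, small over large, ran from 1.21 to 4.69 over the libraries left out, for a gene with 2 to 72 fragments per library.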
